A study of Mus musculus with 7 samples.

Results

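The late cornified envelope genes (Lce) and the filaggrin-type genes encode proteins that keratinocytes make in the last step of differentiation, as they become the dead outer layer of the skin. The 41 genes described here were taken by name from the 55423 features of a mouse count table. They are all genes whose symbol starts with Lce (21 genes) and Lor, Ivl, Flg, Flg2, Hrnr, Rptn, Tchh, Tchhl1, Crnn, Crct1, Lelp1, Kprp, Casp14, Tgm1, Tgm3, Tgm5, Cnfn, Cdsn, Asprv1 and Sbsn. They were chosen by name and role, with earlier results of these data known. All 41 passed the filter on low counts and were among the 24433 genes tested.

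The table holds rRNA-depleted RNA sequencing of whole cutaneous squamous cell carcinomas from mice, taken at clinical endpoint. Both genotypes carried a tamoxifen-inducible Cre recombinase under the involucrin (Ivl) promoter and a Cre-activated BRAFV600E allele, which encodes a constantly active kinase of the MAPK pathway. Ivl:BRAFV600E mice (3 tumours used) had no further oncogene, and Ivl:BRAFV600E-SOX2LSL mice (3 tumours) also carried a SOX2 transgene behind a Cre-removable stop in the Rosa26 locus. Topical tamoxifen was given to both at 7 to 10 weeks of age by the labels (the study's methods give a somewhat later range), so the comparison asks what differs in BRAFV600E tumours when SOX2 is added in the same Ivl-expressing cells. Of the Ivl:BRAFV600E mice, 2 were female and 1 male, and of the Ivl:BRAFV600E-SOX2LSL mice, 1 was female and 2 were male. Both female Ivl:BRAFV600E mice also carried a red fluorescent reporter allele, which the male lacked. By the collection times in the study's source data, every Ivl:BRAFV600E-SOX2LSL tumour was collected sooner after induction than every Ivl:BRAFV600E tumour, so that time cannot be told apart from the genotype. The labels number 4 Ivl:BRAFV600E tumours, of which 3 could be tied to a column of the table. A further column, not used, is named like the SOX2LSL columns, although the labels leave room only for another Ivl:BRAFV600E tumour, and its genotype is uncertain.

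Libraries held 23565432 to 31152826 counted reads. Sox2, which the transgene supplies, stood at 0.716, 0.508 and 0.238 CPM in the Ivl:BRAFV600E tumours and at 182, 155 and 158 CPM in the Ivl:BRAFV600E-SOX2LSL tumours, higher in every tumour labelled with the transgene. CPM are counts per 1000000 after scaling by trimmed mean of M values (TMM). Here and below, values are given in the order of tumours 1, 2 and 3 of each group, numbers that only name the tumours. A count of 3 corresponds to 0.0839 to 0.143 CPM.

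In the upper epidermis, a keratinocyte replaces its plasma membrane with the cornified envelope, a shell of proteins joined by transglutaminases. Loricrin, involucrin, small proline-rich (SPRR) and LCE proteins are its building blocks. Filaggrin and its relatives, which join an S100-type calcium-binding domain to long repeats, bundle keratin filaments or enter the envelope, and proteases cut several of them before the cell is shed. Most of these genes lie side by side in the epidermal differentiation complex, on chromosome 3 in the mouse.

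Every one of the 41 genes had a log2 fold change below 0 in Ivl:BRAFV600E-SOX2LSL against Ivl:BRAFV600E tumours. The median was -1.99, against 0.04 over all genes tested, and the values ran from -4.30 for Crnn to -0.43 for Tgm1. In the edgeR quasi-likelihood test, 12 of the 41 fell at an adjusted p below 0.05 and 0 rose. Across all genes tested 1.51% fell and 2.39% rose, 3.9% in either direction. At an unadjusted p below 0.05, 33 members were lower, where 11.2% of all genes were. The same number, 33, had every Ivl:BRAFV600E-SOX2LSL tumour below every Ivl:BRAFV600E tumour, as did 16% of all genes. The other 8 members overlapped between the groups. DESeq2 called 33 of the 41 lower and 0 higher, against 7.76% of the genes for which it gave an adjusted p.

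The edgeR count depended on single tumours. It was 0 without Ivl:BRAFV600E tumour 1, 0 without tumour 2 and 1 without tumour 3, fits in which 0.0417%, 0.0703% and 0.223% of all genes were called lower. Leaving out Ivl:BRAFV600E-SOX2LSL tumour 1 raised it to 25, and leaving out tumours 2 and 3 of that genotype left 1 and 3, with 3.1%, 0.266% and 0.474% of all genes called lower. With sex as a covariate 1 member, Lce3e, and 0.274% of all genes were called lower. The calls over the whole table thus moved in the same direction as those of the members. The median log2 fold change stayed between -2.27 and -1.69 over these 6 omissions. As these are whole tumours, fewer cornifying cells and less of each transcript per cell cannot be told apart.

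**Figure D1:**
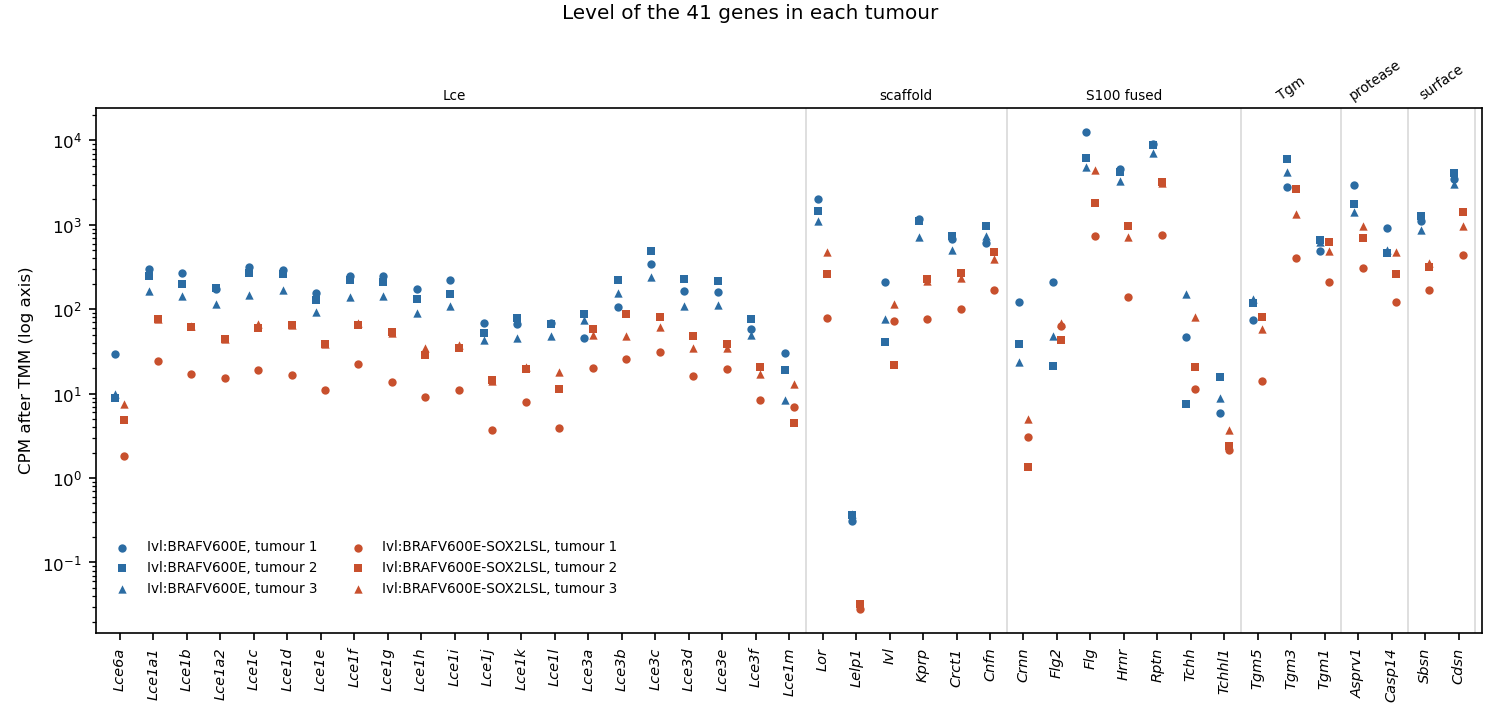
Level of each of the 41 genes in each tumour, in CPM on a log axis. Blue symbols are Ivl:BRAFV600E tumours, orange symbols are Ivl:BRAFV600E-SOX2LSL tumours, the symbol shape gives the tumour number, and genes stand by role and then by position. The orange circles of tumour 1 lie lowest in 35 of the 41 genes. Lelp1 had no read in Ivl:BRAFV600E-SOX2LSL tumour 3 and has no symbol there.

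Ivl:BRAFV600E-SOX2LSL tumour 1 stood apart from the other 2 of its group. It held the lowest of the 6 values in 35 of the 41 genes. Summed over the 41 genes, the level was 46884, 41667 and 31762 CPM in the Ivl:BRAFV600E tumours and 4183, 14305 and 15455 CPM in the Ivl:BRAFV600E-SOX2LSL tumours. As a share of all counted reads, that was 4.41%, 3.43% and 2.84% against 0.525%, 1.53% and 1.66%. The groups did not overlap on either scale. The highest of the 6 values fell in Ivl:BRAFV600E tumour 1 for 23 genes, in tumour 2 for 15 and in tumour 3 for 3, and in no gene in a tumour with SOX2LSL.

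Lce proteins are short, cysteine-rich chains added late to the envelope. The mouse table holds 14 Lce1 genes, 6 Lce3 genes and Lce6a. The summed Lce1 level was 2639.9, 2209 and 1458 CPM without SOX2LSL and 182, 578 and 615 CPM with it, a mean 4.59-fold lower. The summed Lce3 level was 875, 1322 and 741 CPM and 122, 334 and 246 CPM, a mean 4.19-fold lower. Neither sum overlapped between the genotypes. Of the 21 Lce genes, 9 were called lower (1.51% of all genes tested were) and 19 were lower without overlap (16% of all genes), with a median log2 fold change of -2.16.

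The bases just upstream of these genes are shown to let the members that fell be set beside the 2 Lce genes whose groups overlapped, Lce1m and Lce3a, and beside Lor and Crnn from other roles. Each line gives the 100 bases before the gene start of RefSeq on GRCm38.p6, 5′ to 3′ along the gene. Capitals mark ATAAAA within the last 40 bases, CTGTCTCAC, CATCACACA and the AP-1 motif TGANTCA.
Lce1h: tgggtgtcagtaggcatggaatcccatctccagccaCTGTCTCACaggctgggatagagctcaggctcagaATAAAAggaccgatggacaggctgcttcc
Lce1i: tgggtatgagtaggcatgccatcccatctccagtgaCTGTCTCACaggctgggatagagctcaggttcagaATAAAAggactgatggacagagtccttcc
Lce1m: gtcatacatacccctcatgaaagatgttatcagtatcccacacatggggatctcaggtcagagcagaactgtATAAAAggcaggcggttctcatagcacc
Lce3c: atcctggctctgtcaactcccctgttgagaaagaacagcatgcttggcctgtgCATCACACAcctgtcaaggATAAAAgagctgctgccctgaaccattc
Lce3e: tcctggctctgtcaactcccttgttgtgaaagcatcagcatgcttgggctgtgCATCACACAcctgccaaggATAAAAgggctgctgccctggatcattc
Lce3a: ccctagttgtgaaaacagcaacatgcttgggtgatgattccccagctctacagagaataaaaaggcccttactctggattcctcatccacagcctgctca
Lor: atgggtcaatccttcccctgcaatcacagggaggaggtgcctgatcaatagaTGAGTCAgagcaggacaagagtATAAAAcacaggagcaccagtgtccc
Crnn: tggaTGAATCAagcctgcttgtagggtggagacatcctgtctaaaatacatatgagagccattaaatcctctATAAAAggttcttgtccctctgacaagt
On that build they are chr3:92765066-92765165, chr3:92778900-92778999, chr3:93019062-93019161, chr3:92926231-92926330 and chr3:92083143-92083242 on the minus strand and chr3:92944386-92944485, chr3:92966961-92967060 and chr3:93144689-93144788 on the plus strand.

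Lce1h and Lce1i were identical at 89 of the 100 positions without gaps, and Lce1i and Lce1m at 26. RefSeq promoters were matched for 38 of the 41 genes, all except Crct1, Kprp and Lce1f. The letters ATAAAA, searched on the gene strand in the last 40 bases, stood in 12 of 13 Lce1 promoters and 5 of 6 Lce3 promoters, in 4 of the 18 promoters of genes outside the Lce family, and in 2.18% of all 32851 promoters. Lce1m had them and Lce3a had them farther out, starting 44 bases before its start. CTGTCTCAC was in the last 100 bases of 9 Lce1 promoters and of 0.0913% of all. It was absent from Lce1m, but also from Lce1k and Lce1l, which were called lower, and from Lce1c, lower without overlap. CATCACACA was in 4 Lce3 promoters, those of Lce3c, Lce3d, Lce3e and Lce3f, and 0.07% of all. These 3 strings were picked after the sequences were seen.

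Motifs of factor families known in epidermis were searched on both strands over 250 bases before the start. The AP-1 motif TGANTCA was in 8 of the 38 member promoters (21.1%, against 6.75% of all) and in 0 of the 20 Lce promoters among them. The SOX motif CATTGT was in 10.5% of member promoters and 10.7% of all. The C/EBP motif TTGCNNAA was in 18.4% and 9.56%, the grainyhead-like motif AACCNGTT in 2.63% and 1.79%, and TATAAA in 28.9% and 12.4%. A match is a string of letters and was not tested for binding.

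Lce1i, Lce1h and Lce1l had close log2 fold changes, which did not differ beyond their standard errors. Lce1i stood at 221, 151 and 109.5 CPM in the Ivl:BRAFV600E tumours and at 11.2, 34.4 and 37.3 CPM in the Ivl:BRAFV600E-SOX2LSL tumours. The log2 fold change was -2.54 ± 0.48 (SE, n = 3 per group; edgeR adjusted p = 0.0388). Its neighbour Lce1h stood at 175, 134 and 89.7 CPM against 9.04, 28.6 and 35.2 CPM (log2 fold change -2.45 ± 0.50, edgeR adjusted p = 0.0460). In both genes all values with SOX2LSL lay below the lowest without it.

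Lce1a2 stood at 173, 179 and 116 CPM against 15.2, 45.0 and 44.7 CPM (-2.16 ± 0.42, edgeR adjusted p = 0.0412). Lce1k stood at 67.0, 78.2 and 45.4 CPM against 7.86, 19.5 and 20.6 CPM (-1.99 ± 0.38, edgeR adjusted p = 0.0415). Lce1l stood at 69.4, 66.2 and 47.9 CPM against 3.97, 11.5 and 18.3 CPM (-2.44 ± 0.50, edgeR adjusted p = 0.0468). These 3 genes did not overlap either, and in each of the 5 called Lce1 genes tumour 1 of the SOX2LSL genotype was the lowest. The 8 other Lce1 genes without overlap had log2 fold changes from -2.33 to -1.95 and edgeR adjusted p-values from 0.0503 to 0.0594, just past the threshold. No window of 150 bases, the read length, from an Lce1 transcript occurred in the transcript of another gene.

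Lce1m lies apart from the other Lce1 genes, beyond the Lce3 group. Its values were 30.4, 19.0 and 8.36 CPM against 6.94, 4.44 and 13.1 CPM, and the groups overlapped (-1.24 ± 0.54, edgeR adjusted p = 0.202). Lce6a, at the other end of the Lce cluster, had a log2 fold change of -1.76 (edgeR adjusted p = 0.141) without overlap, and of -0.99 without Ivl:BRAFV600E tumour 1, at 29.3 CPM the highest of the 6.

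Lce3 genes are the Lce group known, in human skin, to be induced by injury and in psoriasis. Lce3c, the highest of them in the Ivl:BRAFV600E tumours, stood at 342, 492 and 241 CPM there and at 31.3, 80.8 and 61.1 CPM with SOX2LSL. Its log2 fold change was -2.63 ± 0.40 (edgeR adjusted p = 0.0266), within the standard error of several other Lce genes. Lce3e stood at 161, 215 and 112 CPM against 19.7, 38.3 and 35.1 CPM (-2.39 ± 0.33, edgeR adjusted p = 0.0206). It had the smallest adjusted p of the 41 genes and was still called after 3 of the 6 omissions of a tumour.

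Lce3d stood at 164, 227 and 108 CPM against 16.3, 47.8 and 35 CPM (-2.33 ± 0.43, edgeR adjusted p = 0.0371). Lce3f stood at 58.0, 76.4 and 49.7 CPM against 8.42, 20.9 and 17.1 CPM (-1.99 ± 0.34, edgeR adjusted p = 0.0311). These 4 genes share sequence. Of their windows of 150 bases, 15.1% in Lce3c, 3.22% in Lce3d, 29.5% in Lce3e and 36.8% in Lce3f occurred in another of the 4, so that single levels among them are uncertain. Lce3b was lower without overlap (-1.58 ± 0.46, edgeR adjusted p = 0.0959). Lce3a, with values of 45.1, 87.5 and 75.1 CPM against 19.9, 59.1 and 49.2 CPM, overlapped (-0.70 ± 0.41, edgeR adjusted p = 0.328).

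Loricrin (Lor) is the main protein of the mouse cornified envelope by mass. It stood at 2019, 1460.4 and 1112 CPM in the Ivl:BRAFV600E tumours and at 79.1, 265 and 472 CPM in the Ivl:BRAFV600E-SOX2LSL tumours. The groups did not overlap, yet the difference missed the threshold (-2.49 ± 0.60, edgeR adjusted p = 0.0648). Without Ivl:BRAFV600E-SOX2LSL tumour 1 it was -2.06 ± 0.34 with an edgeR adjusted p of 0.0192 (range over all alternatives 1.55e-04 to 0.199). Without tumour 3 of that genotype it was -3.15.

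Kprp, a proline-rich keratinocyte protein whose gene lies among the Lce genes, was the 1 scaffold gene called. It stood at 1185, 1099.6 and 727 CPM against 75.8, 226 and 219 CPM (-2.53 ± 0.43, edgeR adjusted p = 0.0311). Crct1, a cysteine-rich gene between Lce3f and Lce1m, was lower without overlap (-1.68 ± 0.37, edgeR adjusted p = 0.0543). Cornifelin (Cnfn), an envelope component encoded on chromosome 7, stood at 611, 972 and 732 CPM against 169, 474 and 393 CPM (-1.16 ± 0.38, edgeR adjusted p = 0.118). Cnfn too did not overlap.

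Lelp1 was barely expressed. It had 9, 8 and 8 reads against 1, 1 and 0 reads, a ratio of 16.4 after scaling for depth (95% exact interval 4.08 to 143, counting error only). Its edgeR adjusted p was 0.0503.

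Involucrin (Ivl) is the early envelope protein whose promoter drives the Cre of both genotypes. Its values were 208, 40.4 and 76.4 CPM against 72.5, 22.0 and 114 CPM. The groups overlapped (-0.64 ± 0.72, edgeR adjusted p = 0.611). Without Ivl:BRAFV600E tumour 1 the sign turned, to 0.25 (edgeR adjusted p = 0.861).

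**Figure D2:**
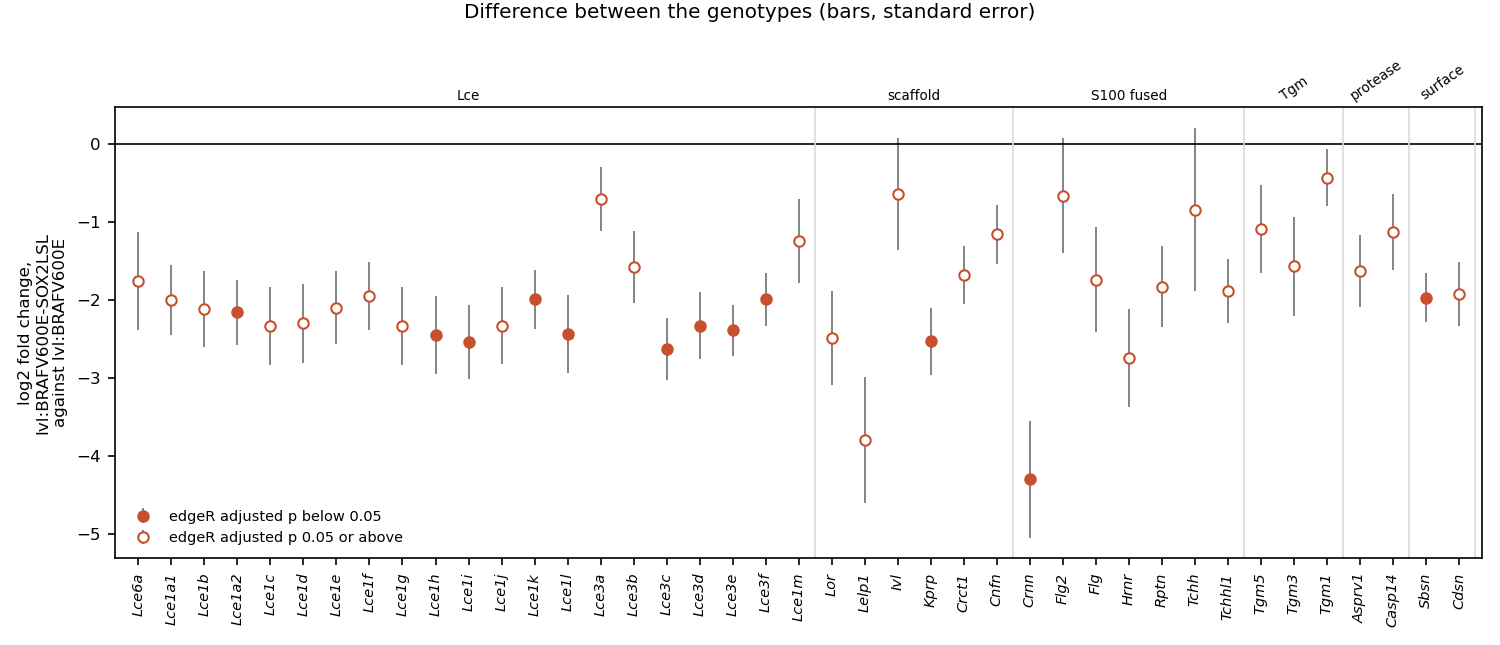
Log2 fold change of the 41 genes in Ivl:BRAFV600E-SOX2LSL against Ivl:BRAFV600E tumours, with the standard error as bars, in the order of the plot of levels. Filled points have an edgeR adjusted p below 0.05 (12 genes). All points lie below 0, and those nearest to 0 are Tgm1, Ivl, Flg2, Lce3a and Tchh.

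The S100 fused-type genes gave the highest levels of the set. Their sum was 26780.3, 19306 and 15564 CPM without SOX2LSL and 1722, 6046 and 8499 CPM with it. Filaggrin (Flg), which packs keratin filaments and is broken down to the moisture-holding amino acids of the skin surface, stood at 12695, 6145 and 4887 CPM against 743, 1839 and 4521 CPM. The groups did not overlap, but the highest tumour with SOX2LSL came close to the lowest without it (-1.74 ± 0.67, edgeR adjusted p = 0.163), and the log2 fold change ran from -1.22 without Ivl:BRAFV600E tumour 1 to -2.61 without that tumour, tumour 3. Repetin (Rptn) stood at 9068, 8870 and 7125 CPM against 757, 3179.7 and 3106 CPM (-1.83 ± 0.52, edgeR adjusted p = 0.0902). Hornerin (Hrnr), a filaggrin-like envelope protein, stood at 4633, 4207 and 3321 CPM against 141, 959.9 and 712 CPM (-2.75 ± 0.63, edgeR adjusted p = 0.0588). In these 3 genes every tumour with SOX2LSL was below every tumour without it, and edgeR called none, while DESeq2 called all 3.

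Cornulin (Crnn), a squamous protein of the upper layers of skin and oesophagus, was the 1 gene of the role that was called. It stood at 122, 38.9 and 23.9 CPM against 3.08, 1.36 and 4.98 CPM. Its log2 fold change, -4.30 ± 0.75, was the largest in size of all 41 (edgeR adjusted p = 0.0324). Without Ivl:BRAFV600E tumour 1, by far the highest, it was -3.33 and no longer called (edgeR adjusted p = 0.111, range over all alternatives 1.97e-09 to 0.111), and Lelp1 was then lower at -3.90. Tchhl1, a trichohyalin-like gene of low level, had a log2 fold change of -1.88 (edgeR adjusted p = 0.0518) without overlap.

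Flg2 and trichohyalin (Tchh) overlapped. Flg2, a close relative of Flg, stood at 208, 21.3 and 47.8 CPM against 63.8, 43.1 and 68.9 CPM (-0.66 ± 0.74, edgeR adjusted p = 0.608), and without Ivl:BRAFV600E tumour 1 its log2 fold change was 0.76 (edgeR adjusted p = 0.352). Tchh is made in the inner root sheath of the hair follicle. Its values of 47.3, 7.62 and 149.9 CPM against 11.5, 20.8 and 81.8 CPM spread 19.7-fold within the Ivl:BRAFV600E tumours alone (-0.84 ± 1.05, edgeR adjusted p = 0.647). Without Ivl:BRAFV600E tumour 3 its log2 fold change was 0.47 (edgeR adjusted p = 0.811). Summed CPM of 10 inner root sheath and hair genes was 195, 13.1 and 283 against 1.59, 28.1 and 120.1. It was highest in tumour 3 of each genotype, as Tchh was. Of these genes Krt71, a keratin of that sheath, had 0 reads in Ivl:BRAFV600E-SOX2LSL tumour 1 and 1 read in Ivl:BRAFV600E tumour 2. Hoxc13, a hair follicle homeobox gene, was the 1 gene of the list called, at 16.7, 11.7 and 16.3 CPM against 1.09, 2.56 and 2.49 CPM (-2.86 ± 0.36, edgeR adjusted p = 0.0175). It was not called without any 1 of the Ivl:BRAFV600E tumours. The part of hair follicle RNA in the Tchh values was not tested.

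Transglutaminases join envelope proteins by covalent bonds. Tgm3 stood at 2799, 6081 and 4216 CPM against 402, 2694 and 1327 CPM (-1.57 ± 0.64, edgeR adjusted p = 0.181), and did not overlap by a narrow margin. Its log2 fold change ran from -1.12 without Ivl:BRAFV600E-SOX2LSL tumour 1 to -2.34 without tumour 2 of that genotype. Tgm1, the membrane-bound enzyme of the same reaction, stood at 491, 667 and 628 CPM against 208, 627 and 494 CPM and was the member nearest to 0 (-0.43 ± 0.37, edgeR adjusted p = 0.506). Tgm5 overlapped as well, at 75.0, 119 and 133 CPM against 14.3, 81.5 and 58.4 CPM (-1.09 ± 0.56, edgeR adjusted p = 0.269). None of the 3 was called by edgeR, where Tgm3 had an unadjusted p below 0.05, and DESeq2 called Tgm3. The ratio of Tgm3 to Tgm1 counts per tumour, a comparison chosen after the values were seen, was 5.7, 9.11 and 6.71 against 1.93, 4.3 and 2.68 and did not overlap.

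Late proteases process filaggrin. Asprv1, the skin aspartic protease that cuts profilaggrin, stood at 2937, 1755 and 1428 CPM against 307, 695 and 972 CPM without overlap (-1.63 ± 0.46, edgeR adjusted p = 0.0875). Caspase-14 (Casp14), which acts later on filaggrin, stood at 918, 466 and 499 CPM against 122, 263 and 473 CPM. Tumour 3 with SOX2LSL exceeded Ivl:BRAFV600E tumour 2, and the difference was not called (-1.13 ± 0.49, edgeR adjusted p = 0.202).

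Corneodesmosin (Cdsn), an adhesive protein that holds cornified cells together, stood at 3509.8, 4125 and 3064 CPM against 438, 1409 and 976 CPM (-1.92 ± 0.41, edgeR adjusted p = 0.0511). Suprabasin (Sbsn), a secreted protein of the layers above the basal cells, fell from 1119, 1288 and 867 CPM to 167, 315 and 352 CPM (-1.97 ± 0.31, edgeR adjusted p = 0.0267). Neither overlapped. Of the windows of Sbsn, 3.3% also occurred in Tmem147os, whose exons overlap it on the same strand.

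Per kilobase of exon, the order of levels changed from that of the counts, since Flg and Hrnr are long. Rptn had the highest mean in both genotypes, within the spread of the next genes where SOX2LSL was present, at 2015 ± 258 CPM per kb (SD, n = 3) without SOX2LSL and 566 ± 332 CPM per kb with it. In the Ivl:BRAFV600E tumours Cdsn (1332 ± 199), Asprv1 (1319 ± 513), Cnfn (1073 ± 255) and Tgm3 (1056 ± 398) followed, and these 4 did not differ beyond their spread. In the Ivl:BRAFV600E-SOX2LSL tumours the same 4 genes followed, in the order Cnfn, Asprv1, Tgm3 and Cdsn, from 481 ± 219.9 to 351 ± 182 CPM per kb, within their spread. Flg stood at 420.1 ± 223 and 126 ± 103 CPM per kb, ninth in both. Flg set against Lor, by counts in the same tumour, was 6.29, 4.21 and 4.4 against 9.39, 6.95 and 9.58. That ratio, also chosen after the values were seen, did not overlap. Of 5 such ratios looked at, the other 3 overlapped, those of the Lce3 to the Lce1 sum, Flg to Rptn and Hrnr to Flg.

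The epidermal differentiation complex was next looked at along the chromosome. Of the 41 genes, 33 lie between positions 92080271 and 93471980 of chromosome 3 (GRCm38, GENCODE M21), a span of 1.39 Mb from Lor to Tchhl1. Their median log2 fold change was -2.12, with 11 called lower and 28 lower without overlap, where 1.51% and 16% of all genes tested were. The 8 members on other chromosomes had a median of -1.36, with 1 called, Sbsn, and 5 not overlapping. Their difference from the 33 was not tested. The neighbours within the span did not share 1 direction. Of 16 Sprr genes, which encode small proline-rich envelope proteins apart from the pseudogene Sprr2j-ps, 5 were called lower and 4 higher by edgeR. Their log2 fold changes ran from -2.82 for Sprr2k to 5.48 for Sprr2a2, a gene with near-identical copies whose reads the counting could divide. Of 7 other protein-coding neighbours 2 were called lower, 2210017I01Rik and 2310050C09Rik (log2 fold changes -2.17 and -2.55). Of 11 neighbours that encode no protein, 1 was called lower.

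**Figure D3:**
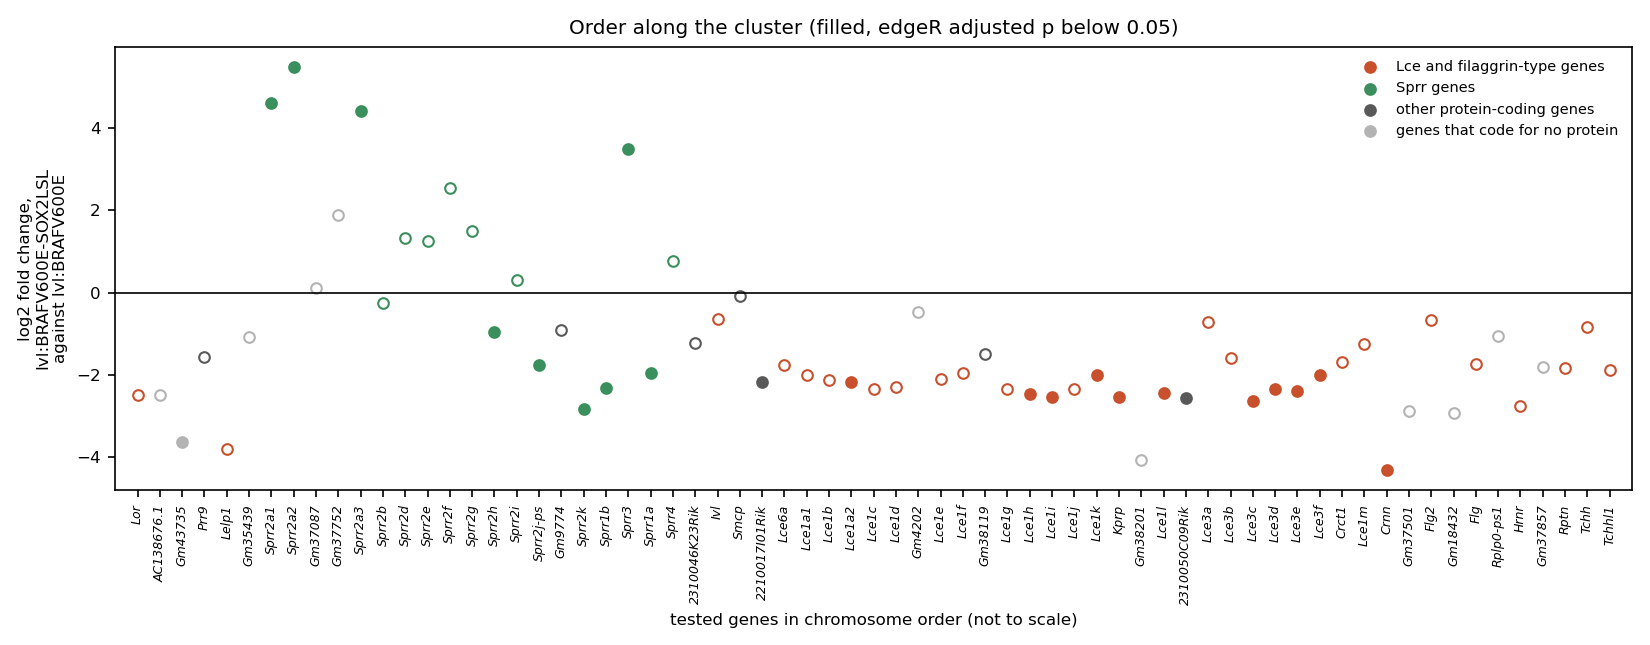
Log2 fold change of tested genes in their order along the cluster on chromosome 3, from Lor to Tchhl1, spaced evenly and not by distance. Filled points have an edgeR adjusted p below 0.05. The orange members lie below 0 throughout, while the green Sprr genes lie on both sides, from -2.82 to 5.48.

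Since the tumours could hold different amounts of keratinocyte RNA, each level was also set against 10 keratinocyte genes. The list mixes layers, with Krt5, Krt14, Trp63 and Col17a1 known from basal cells and junction genes such as Perp and Pkp1 also from the layers above, so it is no layer-neutral measure. Col17a1, Krt5, Trp63 and Cdh1 had log2 fold changes of 0.80, 0.29, 0.10 and 0.35. Krt14, the highest of the 10 genes, had -0.65. Dsp, Jup, Sfn, Pkp1 and Perp had -0.84, -0.89, -0.90, -1.13 and -1.27. The mean log2 level of these 10, taken as log2(CPM + 0.5), was 11.12, 11.62 and 11.39 without SOX2LSL and 10.43, 11.26 and 11 with it. edgeR called none of the 10 in either direction, with 5 lower and 2 higher at an unadjusted p below 0.05, and DESeq2 called 3 lower. Their median log2 fold change was -0.74. Relative to them, the median member stood at -3.32, -3.87 and -4.22 on the log2 scale against -6.1, -5.33 and -5.02. The median difference over the 41 members was -1.58, and 31 were lower without overlap, as were 2.79% of all genes tested on this scale. Against Krt5 and Krt14 alone it was -1.83, and 33 were lower without overlap, against 3.51% of all genes. Lor stood at -0.14, -1.1 and -1.27 relative to the 10 genes, against -4.12, -3.21 and -2.12. Tgm1 stood at -2.18, -2.23 and -2.1 against -2.73, -1.97 and -2.05, which overlapped. Relative to Krt5 and Krt14 alone Tgm1 did not overlap, at -3.58, -3.77 and -3.62 against -4.24, -3.86 and -3.85.

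When the edgeR fit was scaled to the 10 keratinocyte genes in place of TMM, 25 members were called lower and 0 higher, with 0.786% of all genes called lower. That scaling moved the median of all genes to 0.54 and that of the members to -1.60. All 12 genes called under TMM were among the 25, as were Lor, Hrnr, Rptn and Cdsn. Which keratinocytes of the tumours the reads came from was not measured.

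**Figure D4:**
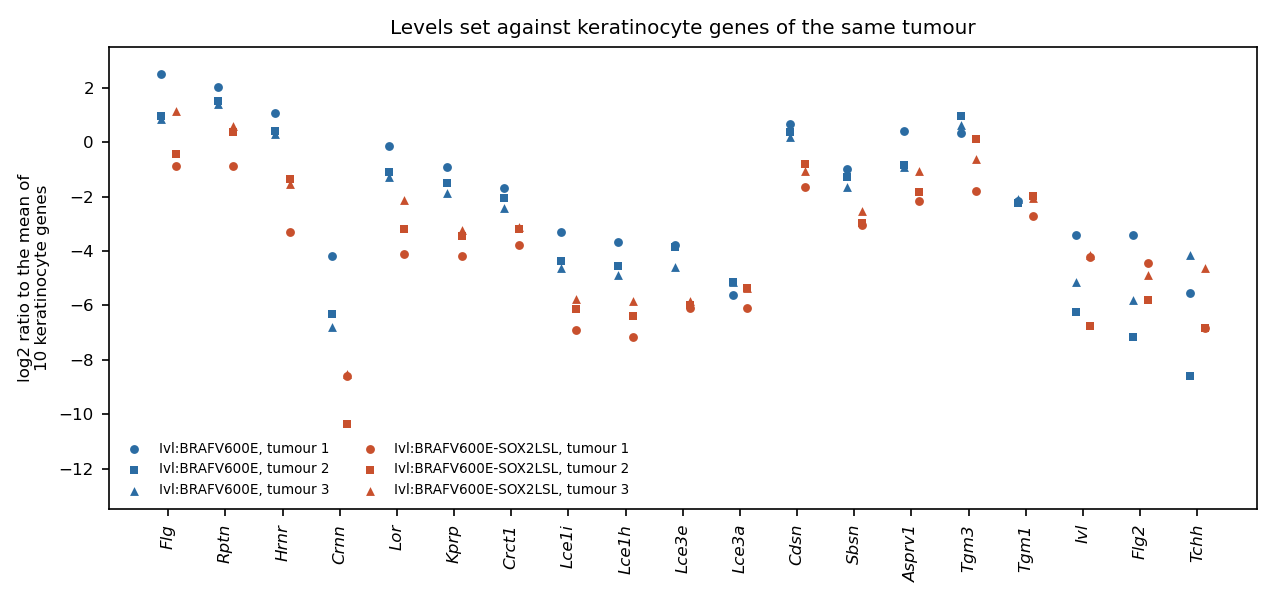
Level of 19 members relative to the mean of 10 keratinocyte genes of the same tumour, as the difference of log2(CPM + 0.5). Colours and symbols are as in the plot of levels. Lor, Kprp, Lce1i and Lce3e separate the genotypes on this scale, and Tgm1 lies near -2 in all tumours but Ivl:BRAFV600E-SOX2LSL tumour 1, at -2.73.

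Other RNA moved with the genotype as well. Skeletal muscle markers summed to 2.52, 3.14 and 5.42 CPM against 1114, 1099 and 258 CPM, and 10 of the 12 tested were called higher (Acta1, Actn3, Atp2a1, Ckm, Myh1, Myh2, Mylpf, Tcap, Tnni2 and Tnnt3). That count was 0, 1 and 3 without Ivl:BRAFV600E tumours 1, 2 and 3, and 11, 4 and 10 without tumours 1, 2 and 3 with SOX2LSL. Fibroblast markers summed to 2123, 761 and 5089.7 CPM against 8293, 3953 and 4770.5 CPM, with 0 of 8 called by edgeR, 1 higher at an unadjusted p below 0.05 and 1 called higher by DESeq2. Leukocyte markers summed to 377, 467 and 1309.6 CPM against 763, 2139 and 1427 CPM, and 2 of 9, Ptprc and Csf1r, were called higher. Much of that sum came from S100a8 and S100a9, whose groups overlapped. S100a9, the highest gene of the list, stood at 143, 198 and 552 CPM against 174, 949.6 and 766 CPM. Of the 9 genes, 4 were higher without overlap, as were 18.2% of all genes. At an unadjusted p below 0.05, 5 of the 9 were higher, and DESeq2 called 4. The edgeR count was 2 without Ivl:BRAFV600E-SOX2LSL tumour 1 and 0 without any other tumour or with sex as a covariate. Markers of thick skin and of body site summed to 76.0, 464 and 456 CPM against 54.5, 42.6 and 47.5 CPM. Most of that sum in Ivl:BRAFV600E tumours 2 and 3 was Krt9. Of these markers, 4 of 9 were called lower (Krt9, Hoxc10, Hoxc11 and Hoxa13), 2 without Ivl:BRAFV600E tumour 2 or 3 and 3 or 4 without each other tumour. The log2 fold changes of 3 others, Pitx1, Tbx4 and Tbx15, were above 0, and Pitx1 was higher without overlap. Among them Krt9, the keratin of palms and soles, stood at 13.6, 389.6 and 378 CPM without SOX2LSL and had 1, 3 and 1 reads with it, and Hoxc11 had 565, 591 and 444 reads against 0, 0 and 0. The part of these differences in the levels of the 41 genes was not tested.

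Known regulators of late differentiation, the enzymes that process filaggrin and envelope lipids, and other envelope or suprabasal proteins were counted from 3 lists of 41 genes in total. edgeR called 6 of them lower and 0 higher, against 1.51% and 2.39% of all genes tested. At an unadjusted p below 0.05, 27 were lower and 2 higher, where 11.2% of all genes were lower. DESeq2 called 22 lower and 2 higher, against 7.76% of genes called lower. The edgeR count of lower genes was 0 without Ivl:BRAFV600E tumour 1 or 2 and 1 without tumour 3 (0.0417%, 0.0703% and 0.223% of all genes). It was 20 without Ivl:BRAFV600E-SOX2LSL tumour 1 (3.1% of all genes) and 1 without either of the other 2 (0.266% and 0.474%). With sex as a covariate it was 0, so that none of the 6 calls below held in that fit. Of 15 regulators 2 were called lower, with a list median of -0.66. Hopx, a homeodomain cofactor, stood at 125, 138 and 119 CPM against 37.9, 59.7 and 63.3 CPM (-1.25 ± 0.21, edgeR adjusted p = 0.0288). Maf, a leucine zipper factor of the differentiated layers, stood at 155, 225 and 207 CPM against 77.4, 107 and 90.4 CPM (-1.10 ± 0.19, edgeR adjusted p = 0.0317). Both fell without overlap.

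Klf4, a zinc finger factor required for the skin barrier, was the highest regulator and missed the threshold. It stood at 1199, 1357 and 1039.6 CPM against 231, 755 and 707 CPM (-1.09 ± 0.42, edgeR adjusted p = 0.160). Trp63, the master factor of stratified epithelium, stood at 261, 297 and 287 CPM against 281, 321 and 302 CPM (0.10 ± 0.13, edgeR adjusted p = 0.662). Gata3, another epidermal factor, had a log2 fold change of 0.99 ± 0.29 (edgeR adjusted p = 0.0987).

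Of 14 enzymes and inhibitors 2 were called lower, with a list median of -1.13. Spink5, the protease inhibitor LEKTI of the outer epidermis, stood at 2223, 3157 and 2142 CPM against 381, 887 and 481 CPM (-2.10 ± 0.35, edgeR adjusted p = 0.0293). Prss8, the membrane protease prostasin, stood at 60, 59.2 and 51.6 CPM against 23.5, 31.9 and 30.2 CPM (-1.0 ± 0.15, edgeR adjusted p = 0.0267). Of 12 other envelope and suprabasal genes 2 were called lower, with a list median of -1.39. They were Sprr1a (-1.95 ± 0.28, edgeR adjusted p = 0.0238) and Sprr1b (-2.31 ± 0.42, edgeR adjusted p = 0.0350), small proline-rich partners of loricrin in the envelope. Krt1, a keratin of the layers that make these proteins, stood at 32201, 45416 and 44328 CPM against 1010.3, 11874 and 13012 CPM (-2.24 ± 0.83, edgeR adjusted p = 0.149). Krt10, its partner, stood at 28863, 36342 and 31849 CPM against 425, 3994 and 7214 CPM (-3.06 ± 0.88, edgeR adjusted p = 0.0935). Neither keratin overlapped, and both were lowest in Ivl:BRAFV600E-SOX2LSL tumour 1, as were 35 of the 41 Lce and filaggrin-type genes.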

How the data were processed

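RNA of frozen mouse tumours was sequenced in pairs of 150 bases after rRNA depletion. The authors' notes name FastQC 0.11.8, Trim Galore, HISAT2 2.1.0 on GRCm38 and featureCounts of Subread 1.6.3, and they deposited raw read counts per gene. Strand and multimapping settings are not given in the sources used here, so genes with overlapping exons (Rptn, Lelp1, Sbsn and Tgm1 among the members) are uncertain. Columns were assigned to genotypes by the mouse names of the study's Source Data, as 3 against 3, since 1 column matched no listed mouse, had a name at odds with the group sizes of the labels, and was not used. The design had been written for every column that could be assigned. Separate mice were the replicates.

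The test ran over the whole table, on genes that reached 5 reads in 1 tumour or more, with edgeR 4.0.16 (R 4.3.3), TMM scaling, quasi-likelihood F tests and Benjamini-Hochberg adjustment at 0.05. The common biological coefficient of variation was 0.372. The fit was tested on simulated data. Alternatives used DESeq2 1.42.0, limma 3.58.1 voom, other scalings and filters, sex as a covariate and the omission of each tumour. Scaling to keratinocyte genes was added after seeing the data.

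Members and lists were chosen with earlier results of these data known. Values in every tumour are given for called members, the 10 with the highest mean CPM and both ends of the log2 fold change in each role. Those of Lce1m, Tchh and Tgm5 were added after their values were seen, because their groups overlap. Listed genes given with values were called, among the 4 smallest p-values or the highest of their list, except Trp63 and Krt10, which were added after their values were seen. Outside that rule, log2 fold changes are given for all 10 keratinocyte genes. Gene positions and exon lengths are from GENCODE M21 and promoters from RefSeq on GRCm38.p6. Intervals on counts cover counting error only. Promoters and figures were handled in Python 3.11.15.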

Additional observations from a re-analysis of the deposited data

How the results depend on the processing

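All 41 genes kept a log2 fold change below 0 under DESeq2, limma voom, the other scalings, no filter and the sex covariate, and all 40 fitted did so under edgeR's filterByExpr. Of 573 values of a member under an alternative, 423 stayed on the same side of the threshold with the same sign, 80 passed it newly, 67 lost it and 3 turned in sign. The 3 were Ivl (0.25, from -1.19 to 0.25 over the omissions of a tumour) and Flg2 (0.76, from -1.13 to 0.76) without Ivl:BRAFV600E tumour 1 and Tchh (0.47, from -2.08 to 0.47) without Ivl:BRAFV600E tumour 3. The 12 members called lower stood beside 1.51% of all genes called lower. The count became 33 with DESeq2 (7.76% of all genes), 28 without a filter on low counts (1.99%) and 19 with filterByExpr (3.18%). It was 1 with sex as a covariate (0.274%) and 25 with keratinocyte scaling (0.786%). DESeq2 size factors gave 13 (1.56%), upper-quartile scaling 16 (1.91%) and limma voom 16 (1.47%). Leaving out each tumour gave 0 to 25, with 0.0417% to 3.1% of all genes called lower. The count of 6 listed pathway genes called lower became 22 with DESeq2, 10 with limma voom, 15 without a filter, 0 with sex as a covariate and 0 to 20 without each tumour. The count of 0 called higher became 2 with DESeq2, 1 without a filter, 1 with keratinocyte scaling and 0 to 1 without each tumour. The causes of these shifts were not tested. No paired analysis was possible because the columns of the count table carry no replicate number. Read depth was limiting for Lelp1, which had at most 9 reads in a tumour.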
